A study of Homo sapiens with 16 samples.

Results

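ADAR, ZBP1, ADARB1, EIF2AK2, MAVS, STAU1, DHX9 and ILF2 encode 8 proteins that bind double-stranded RNA or left-handed nucleic acids, partner with such proteins or relay their signals. They were taken by symbol from the 28207 human genes counted in each file, and each of the 8 was present. The 16 RNA libraries came from U2OS, an established line grown from an osteosarcoma. The labels carry a number, zdna1, zdna2, zdna3 or zdna4, and an arm, CC or CL, which makes 8 groups of 2 replicates, and the count headers show that the reference of each number held its own extra contig. Neither numbers nor arms are explained there, and no agent, dose or time is named, so neither arm is treated as the control and differences are given as CL over CC. The labels do not say whether replicates were separate cultures, so the spread between them may be technical.

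Z-DNA and Z-RNA are left-handed double helices that form most readily where purines and pyrimidines alternate. ADAR and ZBP1 are the human proteins with a Zα domain, which recognises this shape. ADAR, through its interferon-induced long form, edits adenosine to inosine in double-stranded RNA and so hides it from sensors, whereas ZBP1 starts cell death on binding it. EIF2AK2, also called PKR, and the sensors upstream of MAVS respond to unedited double-stranded RNA with translational arrest and interferon.

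The promoters were examined because the series title names MYC, which binds the E-box CACGTG, and Z-DNA. RefSeq gave promoter windows of 250 bases before to 50 bases after an annotated start (GRCh38.p14) for 7 of the 8 genes, 13 windows in all. No window was matched for ZBP1. The stretches below are shown for 3 genes, 5′ to 3′ on the gene's strand, with positions counted from the annotated start. In ADAR (chr1:154627998-154628087, minus strand, GRCh38.p14, positions -90 to -1) the capitals mark an E-box. In EIF2AK2 (chr2:37156977-37157170, minus strand, GRCh38.p14, positions -190 to 4) the first capitals mark an E-box and the second an interferon element core, GAAA, any 2 bases, GAAA. In DHX9 (chr1:182839257-182839346, plus strand, GRCh38.p14, positions -90 to -1) the capitals mark the longest run in which purines and pyrimidines alternate.
ADAR: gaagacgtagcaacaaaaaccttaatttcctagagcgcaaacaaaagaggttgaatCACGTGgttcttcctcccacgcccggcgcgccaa
EIF2AK2: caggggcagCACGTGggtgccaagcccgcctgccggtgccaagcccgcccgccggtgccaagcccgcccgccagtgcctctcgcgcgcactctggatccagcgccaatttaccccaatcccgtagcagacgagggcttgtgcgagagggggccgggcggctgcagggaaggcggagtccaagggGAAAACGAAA
DHX9: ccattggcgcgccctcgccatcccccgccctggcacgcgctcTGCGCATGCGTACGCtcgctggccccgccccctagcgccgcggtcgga

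Both strands were searched for each motif. The E-box was found in 7.26% of 35116 RefSeq promoter windows of the same length, and among these 8 genes in windows of ADAR and EIF2AK2. The interferon element core was found in 3.57% of windows, and here in EIF2AK2 alone. An alternating run as long as the 15 bases of DHX9 was found in 2.53% of windows, against a median longest run of 7 bases. These shares are per window, whereas the DHX9 run was picked as the longest in 13 windows of these genes. In the windows of the other genes the longest run was between 6 bases, as in ILF2, and 12 bases, in ADARB1. Whether the genes as a set hold more motifs or longer runs than other genes was not tested. These matches are descriptions of letters, and the RNA libraries do not measure binding or helix shape at them.

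Levels are given in CPM, human-gene reads scaled to one library total with TMM factors, while the value of 1 read, pooled values and the sums over marker and olfactory receptor genes use the totals alone. Over all 16 libraries the human-gene reads ran from 39335 to 310187, and 1 read stood for 3.22 to 25.4 CPM. The levels of mesenchymal markers expected in U2OS summed to 4144 to 4696 CPM in zdna4 CC and 4926 to 6377 CPM in the other 14 libraries. Among them TWIST1 had 0 reads, COL1A2 10 and RUNX2 55. Leukocyte markers summed to at most 36.0 CPM, with CD3E and CD14 at 0 reads, and the erythroid markers HBB and HBA1 had 0 reads. Hepatocyte markers summed to at most 24.5 CPM. Endothelial markers summed to 73.4 to 127 CPM in zdna4 CC and at most 94.1 CPM in the other 14 libraries. Of the neural markers, NEFL had 221 reads, at a median of 96.1 CPM, and SYP 1. The epithelial keratins KRT8 and KRT18 were present at medians of 392 and 349 CPM, while EPCAM had 14 reads and CDH1 3.

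ILF2 had the highest RNA level per length of the 8 genes and ZBP1 the lowest mean. Levels of different genes are compared only in CPM per kb of exon. ILF2, also called NF45, a DZF-domain protein of the nucleus, averaged 173 CPM per kb and ranked first in 16 of 16 libraries. DHX9, also called RNA helicase A, averaged 81.2 CPM per kb and ranked second in 14. STAU1, the double-stranded RNA binding protein that marks messenger RNAs for transport or Staufen-mediated decay, averaged 63.0 CPM per kb, and ADAR 51.7. EIF2AK2 at 11.6 CPM per kb and MAVS at 8.90 were close, with EIF2AK2 the higher in 14 of 16 libraries. ADARB1, the second adenosine deaminase of the family, stood at 1.81 CPM per kb, so the ratio of ADAR to ADARB1 was 28.5, and ADAR was the higher in 16 of 16 libraries.

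**Figure D1:**
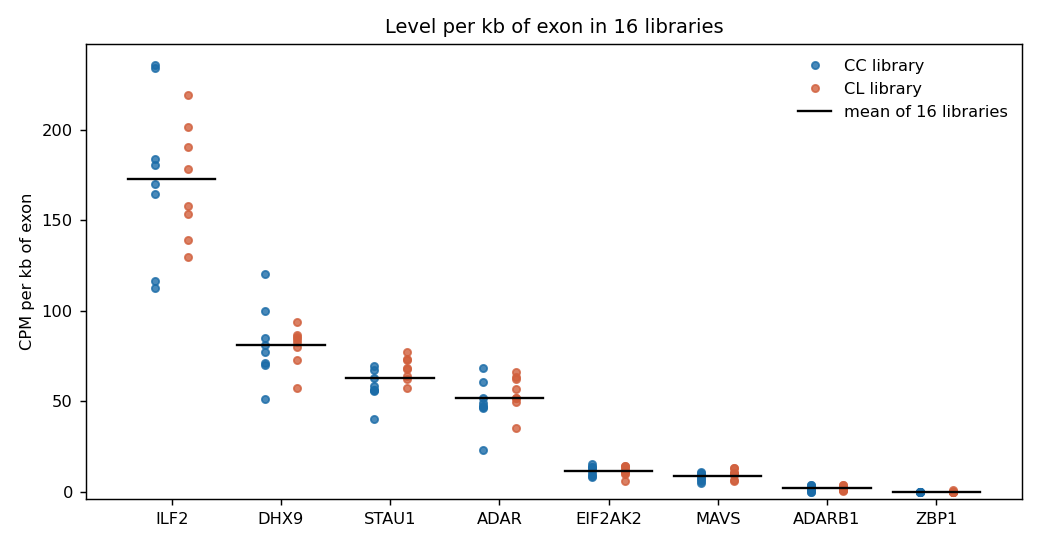
Level of each gene in CPM per kb of exon (y axis) for 8 genes (x axis, ordered by mean), with 1 point per library, blue for CC and orange for CL, and a line at the mean of 16 libraries. ILF2 has the highest mean, 173 CPM per kb, and ADARB1 and ZBP1 lie near 0.

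ZBP1 (hg19 chromosome 20, 56178908 to 56195482, minus strand, 2902 exonic bases), the Z-nucleic acid sensor that recruits RIPK3, had 1 read among 2009133 human-gene reads. That read was in replicate 1 of zdna4 CL, and the other 15 libraries had 0. Pooled over the libraries this is 0.498 CPM, with an exact 95% Poisson interval from 0.0126 to 2.77 CPM that covers counting error only. Olfactory receptor genes, whose transcription is mostly limited to the nose, had reads at a density that would place 1.71 reads on an exon length like that of ZBP1 in the 14 libraries outside zdna4 CC, where 1 was counted. The ZBP1 count was thus not above the level of those genes, and no comparison between groups could be made at this depth.

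ADARB1 (hg19 chromosome 21, 46494493 to 46646478, plus strand, 7372 exonic bases), which edits neuronal receptor messages, had 25 reads in all. Its 2 replicates of zdna1 CC read 8.87 and 28.5 CPM, and those of zdna1 CL 27.9 and 6.34 CPM. The arms overlapped, each with 1 high and 1 low library. Libraries at 0 were replicate 1 of zdna3 CC and replicate 1 of zdna4 CC. Outside zdna4 CC, 24 reads were counted where the density of the olfactory receptor genes would place 4.34. ADARB1 lay under the mean of 50 CPM that a gene needed to be tested, as did ZBP1, so 6 of the 8 genes entered the tests.

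ADAR (hg19 chromosome 1, 154554534 to 154600473, minus strand, 18 merged exons) had the largest CL over CC estimate of the 6 genes in zdna4. Its replicates read 162 and 343 CPM in zdna4 CC and 445 and 438 CPM in zdna4 CL, so both CL libraries lay above both CC libraries. In the other numbers the arms overlapped. The zdna1 replicates read 364 and 325 CPM in CC and 349 and 399 CPM in CL. The zdna2 replicates read 333 and 329 CPM in CC and 363 and 246 CPM in CL. The zdna3 replicates read 481 and 429 CPM in CC and 464 and 365 CPM in CL. Group means ran from 253 ± 128 CPM in zdna4 CC to 455 ± 37.4 CPM in zdna3 CC (mean ± SD, n = 2), a ratio of 1.80. No 2 neighbours in the order of the 8 group means were free of overlap.

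The CL over CC difference of ADAR in zdna4 was 0.87 on the log2 scale of CPM + 10, with a 95% interval from 0.23 to 1.51 (SE 0.319). It did not pass the test of limma over all 4632 genes tested, where a call needs an adjusted p under 0.05 (adjusted p = 0.212). The value rested on the zdna4 CC libraries, with 6 and 13 ADAR reads, against 139 and 98 for the CL libraries. Without replicate 1 of zdna4 CC the difference was 0.38, and without replicate 2 it was 1.40, and neither passed the test. The same 2 libraries held the fewest human-gene reads, 39335 and 40886, and the most reads in olfactory receptor genes, 1449 and 1492 CPM over 401 genes against 55.3 to 396 CPM in the other 14, and the part of either in the ADAR difference was not tested.

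**Figure D2:**
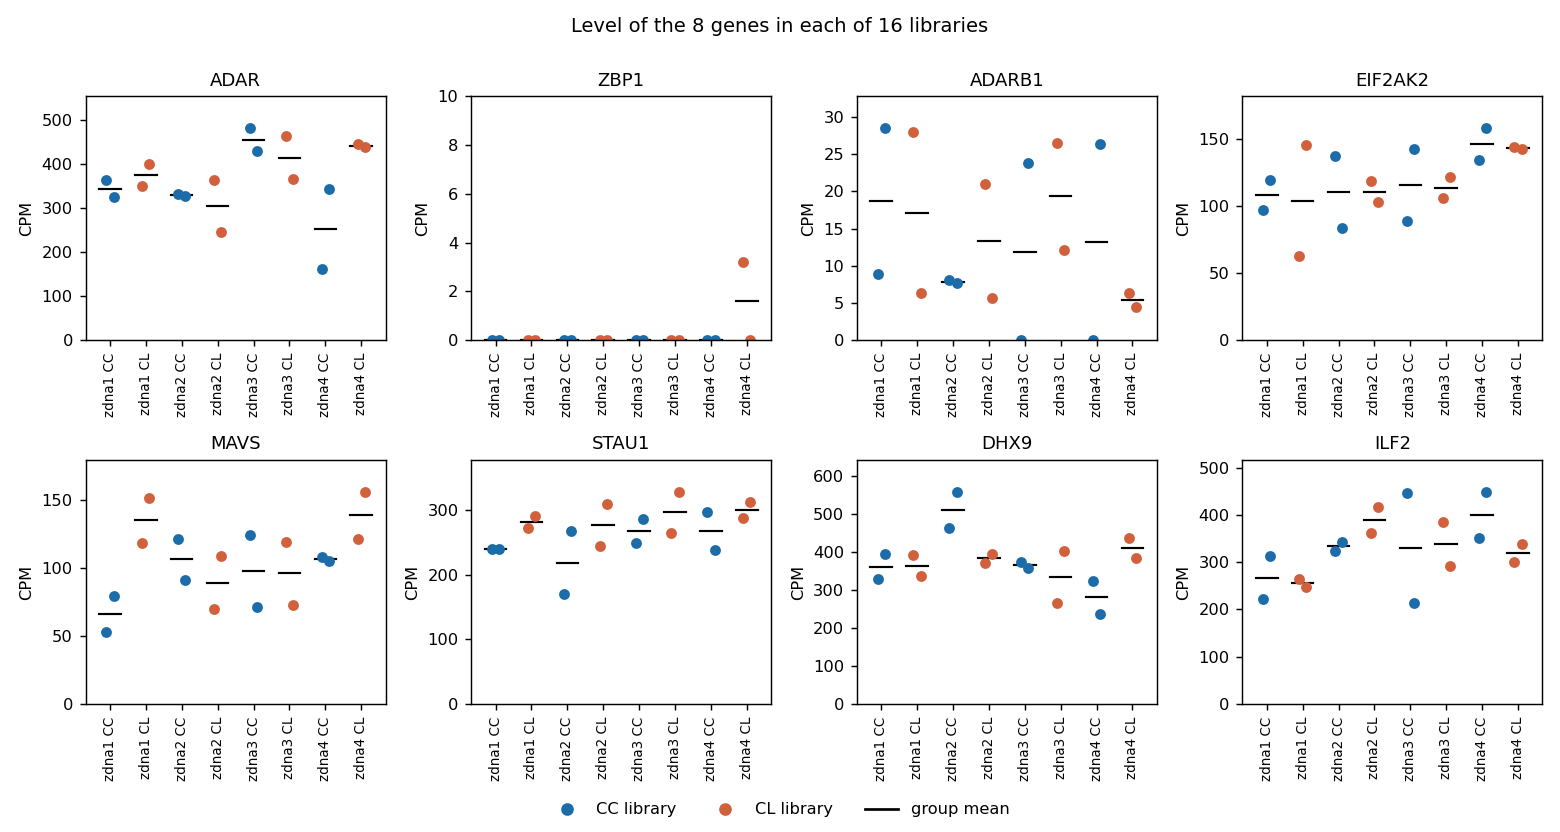
Level in CPM (y axis, a separate linear scale per gene starting at 0) of the 8 genes in 8 groups (x axis), with 1 point per library, blue for CC and orange for CL, and a black line at the mean of 2 replicates. ADAR is low in 1 zdna4 CC library at 162 CPM, and ZBP1 has a read in 1 library only.

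EIF2AK2 (hg19 chromosome 2, 37326353 to 37384190, minus strand, 10276 exonic bases) encodes the kinase that arrests translation by phosphorylating eIF2 alpha. Its estimated differences between the arms were close to 0 in every number, with wide intervals. Its group means ran from 104 ± 58.6 CPM in zdna1 CL to 147 ± 16.7 CPM in zdna4 CC (mean ± SD, n = 2). The zdna4 CC mean rested on 5 and 6 EIF2AK2 reads, where the density of the olfactory receptor genes would place 2.76 in all. The zdna1 CL replicates alone spanned 62.8 and 146 CPM, nearly its whole range over 16 libraries, and CL and CC overlapped in all 4 numbers. Its differences between the arms lay between -0.15 and 0.03 on the log2 scale. The 95% intervals ran from -0.81 to 0.51 in zdna1 and from -0.63 to 0.70 in zdna2. In zdna3 they ran from -1.06 to 1.07 and in zdna4 from -1.09 to 1.04. Averaged over the numbers the difference was -0.03 with a 95% interval from -0.48 to 0.41. EIF2AK2 shares 35 exonic bases with GPATCH11 on the other strand, whose reads cannot be told apart without strand.

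MAVS (hg19 chromosome 20, 3827446 to 3856770, plus strand, 11771 exonic bases), the mitochondrial adaptor of the RNA helicase sensors RIG-I and MDA5, was higher in CL than in CC of zdna1 without passing the test. Its zdna1 replicates read 53.2 and 79.8 CPM in CC and 119 and 152 CPM in CL, with no overlap. The difference was 0.94 on the log2 scale (SE 0.343, 95% interval 0.25 to 1.62, adjusted p = 0.242 by limma), from 6 and 14 reads (CC) and 17 and 24 reads (CL). In zdna4 both CL libraries, at 122 and 156 CPM, lay above both CC libraries, at 108 and 106 CPM. The difference was 0.34, with an interval from -0.77 to 1.45. It came from 4 and 4 reads (CC) and 38 and 35 reads (CL). In the zdna4 CC libraries 1 read stood for 25.4 and 24.5 CPM, more than the step from 108 to 122 CPM. The 2 held 8 MAVS reads where the density of the olfactory receptor genes would place 3.16. In zdna2 and zdna3 the arms overlapped and the differences were -0.25 and -0.02. The test that the 4 differences are equal gave an adjusted p of 0.579 for MAVS by limma.

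STAU1 (hg19 chromosome 20, 47729876 to 47835832, minus strand) was the gene whose CL over CC difference was above 0 in each of the 4 numbers, between 0.14 and 0.35. In zdna1 its replicates read 239 and 240 CPM in CC and 272 and 292 CPM in CL. In zdna2 they read 170 and 267 CPM in CC and 244 and 309 CPM in CL. In zdna3 they read 250 and 286 CPM in CC and 265 and 328 CPM in CL, and in zdna4 297 and 238 CPM in CC and 288 and 313 CPM in CL. The arms were free of overlap in zdna1 and overlapped in the other 3 numbers. The average of the 4 differences was 0.22, with a 95% interval from -0.07 to 0.52 (SE 0.147, adjusted p = 0.672 by limma). The share of all genes with a difference above 0 in each of the 4 numbers was not counted.

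DHX9 (hg19 chromosome 1, 182808482 to 182857117, plus strand, 29 merged exons), a helicase that unwinds double-stranded RNA and other structured nucleic acids, had estimates of opposite sign in zdna2 and zdna4. In zdna2 its replicates read 462 and 558 CPM in CC and 370 and 395 CPM in CL, a difference of -0.40 (95% interval -0.78 to -0.02, adjusted p = 0.735 by limma). In zdna4 they read 324 and 238 CPM in CC and 435 and 384 CPM in CL, a difference of 0.54 (95% interval -0.07 to 1.16, adjusted p = 0.558). Neither pair of arms overlapped. The difference between these 2 was not tested on its own, and equality of all 4 had an adjusted p of 0.536 by limma. Averaged over the numbers the interval ran from -0.26 to 0.25, the narrowest of the 6 genes.

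ILF2 (hg19 chromosome 1, 153634264 to 153643504, minus strand, 1906 exonic bases) differed between numbers more than between arms by its estimates. The 4 zdna1 libraries read 222 and 314 CPM in CC and 265 and 247 CPM in CL. The 4 zdna2 libraries read 325 and 344 CPM in CC and 363 and 418 CPM in CL, so all 4 lay above all 4 of zdna1. The share of all genes that separate in this way was not counted, and 15.5% of them had an unadjusted p under 0.05 by limma for this pair. Averaged over the arms, zdna2 over zdna1 was 0.46 on the log2 scale (SE 0.147, 95% interval 0.16 to 0.75, adjusted p = 0.0822 by limma), the smallest adjusted p of any of the 6 genes by limma in the 13 comparisons over all libraries. With plain library totals in place of TMM factors it was 0.51 and passed the test (adjusted p = 0.0462 by limma). The median of all genes for this pair then moved from 0.004 to 0.05. The ILF2 difference did not pass by edgeR (adjusted p = 0.104), by DESeq2 (0.280) or by limma on the deposited scale, at 0.35 (0.265). Without replicate 2 of zdna1 CC, the zdna1 library with the highest ILF2 level, it was 0.58. The ILF2 difference between arms averaged over the numbers had an interval from -0.28 to 0.27. ILF2 shares 65 exonic bases with SNAPIN on the other strand, which had 47 reads against 654 for ILF2.

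Between the arms, 0 of the 6 genes were called by limma in any number. The share of all 4632 genes called was 0.756% in zdna1, 0.173% in zdna2, 0.0864% in zdna3 and 1.17% in zdna4, and 0.432% for the average over the numbers, so a count of 0 among 6 is near the background. At an unadjusted p under 0.05, 1 of the 6 passed in zdna1 (MAVS), beside 10.6% of all genes, 1 in zdna2 (DHX9), beside 6.58%, 0 in zdna3, beside 6.56%, 1 in zdna4 (ADAR), beside 10.4%, and 0 for the average, beside 9.28%. The test that the 4 differences are equal called 0.864% of all genes and 0 of the 6, with 0 at an unadjusted p under 0.05, which 10.4% of all genes had. The quasi-likelihood test of edgeR also called 0 of the 6 in each, beside 0.993%, 0.194%, 0.0864% and 1.17% of all genes in zdna1 to zdna4, 0.475% for the average and 1.23% for equality. DESeq2 called 0 of the 6, beside 0.345%, 0.0648%, 0.0864%, 0.604%, 0.302% and 0.734%. Over the 6 genes the 95% intervals of the average reached at most 0.46 to either side of the estimate, for MAVS. In zdna3 and zdna4 they reached up to 1.11, so larger differences lay inside the intervals there than in zdna1 and zdna2. The CC libraries of zdna3 and zdna4 held the fewest human-gene reads, and in zdna3 CC the contig took 87.7% and 87.4% of assigned reads.

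**Figure D3:**
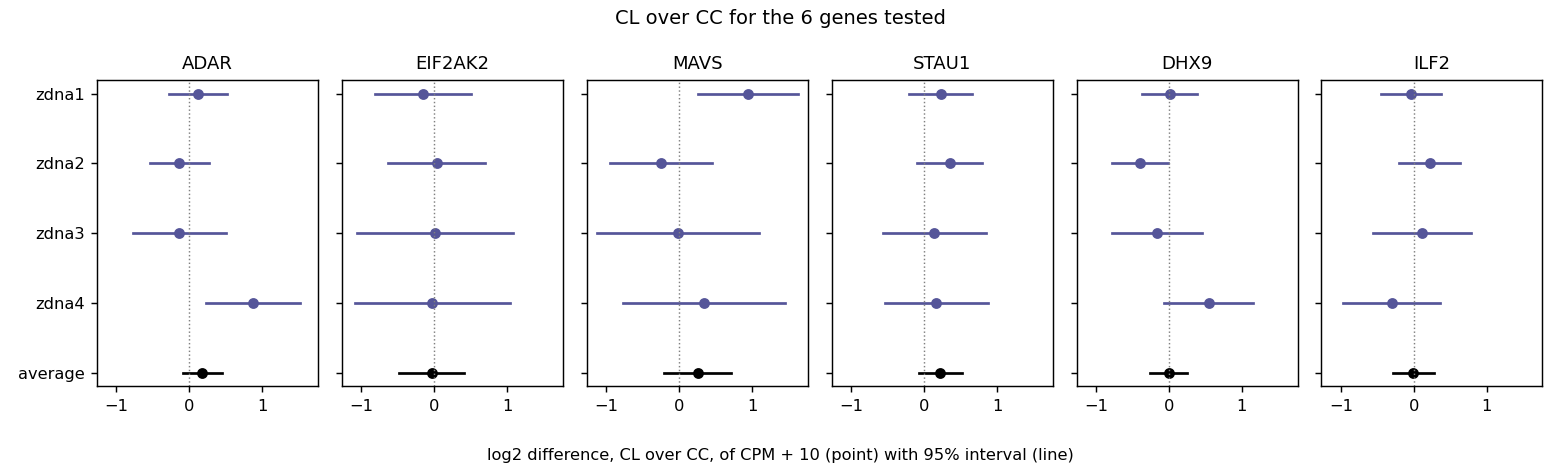
Log2 difference of CL over CC in CPM + 10 (x axis) for each of 6 genes (panels) in zdna1 to zdna4 and averaged over them (y axis), with the estimate as a point and the 95% interval as a line. The intervals of MAVS in zdna1, DHX9 in zdna2 and ADAR in zdna4 leave out 0 before adjustment over all genes, and none of these differences passed the test.

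Non-overlap of 2 libraries with 2 was common among all genes. In zdna1 the arms were free of overlap for 2 of the 6 (MAVS and STAU1, both higher in CL), against 41.8% of all 4632 genes. In zdna2 they were free of overlap for ILF2, higher in CL, and DHX9, lower in CL, against 35.0%. In zdna3 this held for 0 of the 6, against 34.0%, and in zdna4 for 4 (ADAR, MAVS and DHX9 higher, ILF2 lower), against 44.2%.

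Among the numbers, averaged over the arms, 0 of the 6 genes were called by limma, by edgeR or by DESeq2. The background was larger here. The test of any difference among the 4 numbers called 8.85% of all genes, and at an unadjusted p under 0.05 ILF2 alone of the 6 passed it (adjusted p = 0.114), beside 24.3% of all genes. By pairs, limma called 2.5% of genes for zdna2 over zdna1, 4.49% for zdna3 over zdna1, 0.691% for zdna4 over zdna1, 6% for zdna3 over zdna2, 2.48% for zdna4 over zdna2 and 4.75% for zdna4 over zdna3. For the same test of any difference and the 6 pairs in this order, edgeR called 10.6%, 2.76%, 5.42%, 0.604%, 6.54%, 3.37% and 6.02% of genes, and DESeq2 4.81%, 0.885%, 2.53%, 0.367%, 2.89%, 1.64% and 3.24%. Pairs that hold the same number share its libraries. At an unadjusted p under 0.05, 15.5%, 18%, 9.89%, 20.4%, 15.6% and 17.9% of all genes passed in the 6 pairs, and 2, 0, 1, 1, 1 and 0 of the 6 genes. Besides ILF2 in zdna2 over zdna1, the pair values with an unadjusted p under 0.05 were DHX9 at 0.28 in zdna2 over zdna1 and -0.38 in zdna4 over zdna2, ILF2 at 0.44 in zdna4 over zdna1, and ADAR at 0.45 in zdna3 over zdna2. All 4 ADAR values of zdna3, 365 to 481 CPM, lay above all 4 of zdna2, 246 to 363 CPM (95% interval 0.07 to 0.83, adjusted p = 0.158 by limma). The share of all genes that separate in this way was not counted.

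In the CL libraries alone, which leave out the shallow zdna4 CC libraries, ADAR was called higher in zdna4 than in zdna2, beside 6.37% of all genes called higher. Its replicates read 445 and 438 CPM in zdna4 CL and 363 and 246 CPM in zdna2 CL, a difference of 0.55 (SE 0.167, 95% interval 0.21 to 0.88). The adjusted p was 0.0249 by limma, 0.0203 by edgeR and 0.226 by DESeq2. With the arms averaged, the same pair stood at 0.04 with an interval from -0.34 to 0.42.

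The deposited values carry 1 constant per library, and on that scale 21 of the 66 estimates of these genes had the opposite sign. Of these, 12 involved zdna3, and 9 passed the test of limma with the opposite sign, all in pairs with zdna3. The median of all 4632 genes was then -1.50 for zdna3 over zdna1, -1.37 for zdna3 over zdna2 and 1.40 for zdna4 over zdna3, and limma called 6 of 6 genes in each of these pairs beside 95.4%, 91.9% and 82.4% of all genes. ADAR read -1.34, -1.04 and 1.16 in the 3 pairs, and the 6 genes lay within -0.45 and 0.37 of the median of all genes. Between the arms the median was 0.73 in zdna3 and 0.44 in zdna4 and 0.35 for the average. STAU1 at 0.90 and ILF2 at 0.87 were then called in zdna3, beside 22.2% of all genes, ADAR at 1.25 in zdna4, beside 4.56%, and ADAR at 0.52 and STAU1 at 0.55 for the average, beside 21.9%. How the constant was obtained is not given in the sources used here. Less RNA of every gene in zdna3, fewer cells, or the constant itself thus cannot be told apart. The contig's share of assigned reads ran from 0.326% to 87.7% over the 16 libraries. It was 87.7% and 87.4% in zdna3 CC, 20.8% and 21.6% in zdna3 CL, 63.4% and 64.3% in zdna2 CC, and 60.0% and 61.1% in zdna2 CL. Its part in the shift was not tested.

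**Figure D4:**
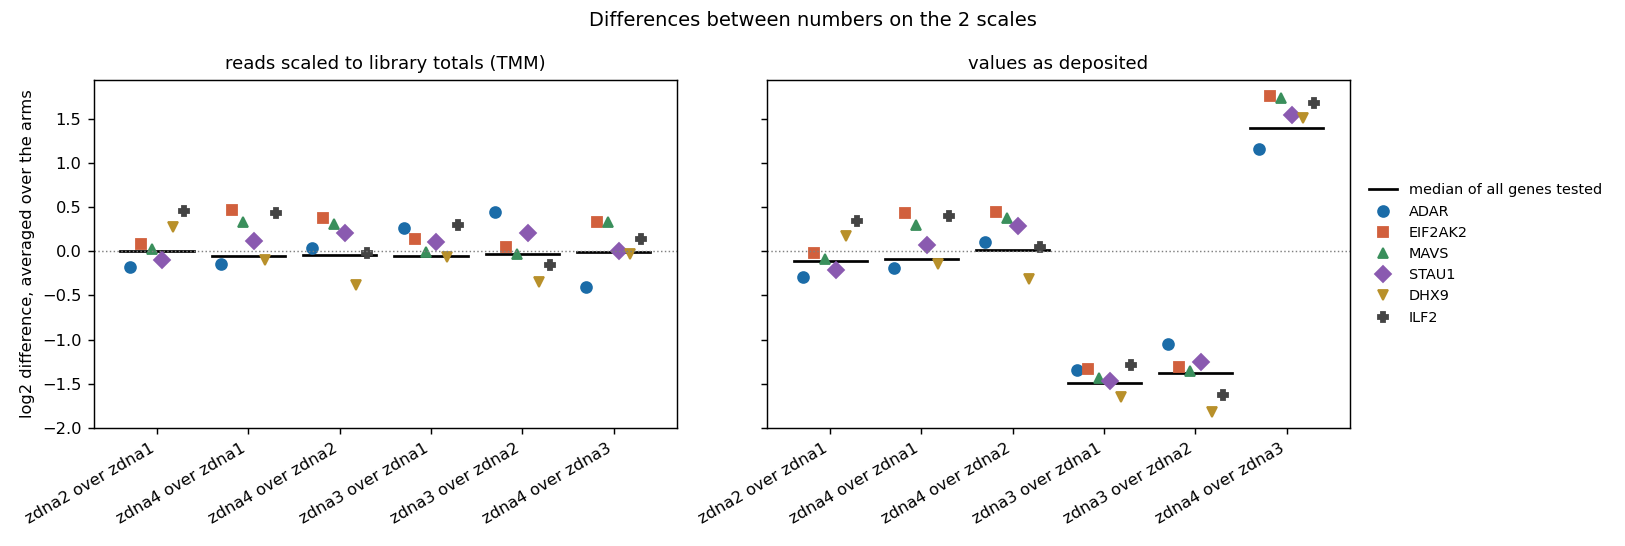
Log2 differences between pairs of numbers averaged over the arms (y axis) for 6 genes (symbols) in 6 pairs (x axis), from reads scaled to library totals with TMM factors (left) and from the values as deposited (right), with a black line at the median of all 4632 genes tested. On the right the pairs with zdna3 shift by more than 1 together with the median of all genes, and the 6 genes stay near it.

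Pearson r of log2 CPM + 10 was taken between each 2 of the 6 genes across the 16 libraries. The highest was 0.36, for MAVS and ILF2. Counting noise lowers r, so a low value does not show that 2 levels are unrelated. Of 2312 other genes of at least 100 CPM, 11.1% had an r above 0.5 with ADAR. For the other members this share ran from 1.60% (EIF2AK2) to 4.46% (DHX9). As a description over 16 libraries that share depth and group structure, the 2 most alike of 2312 genes were MFGE8 (r = 0.91) and RECQL4 (r = 0.85) for ADAR, and PRPF38A (0.82) and HNRNPR (0.79) for DHX9. They were IGFBP5 (0.80) and HNRNPM (0.73) for MAVS, UQCRB (0.76) and CUX1 (0.72) for EIF2AK2, BANF1 (0.75) and PPHLN1 (0.74) for ILF2, and VAT1 (0.70) and MICALL1 (0.68) for STAU1.

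Many genes of the pathways around ZBP1 and MAVS had few or no reads, as had many human genes at this depth. Of all 28207 human genes, 4632 were tested. The library with the most human-gene reads, replicate 1 of zdna4 CL, had reads in 14541 of them. The share of all genes with at most 10 reads was not computed. Of 34 genes of double-stranded RNA and Z-nucleic acid sensing and signalling, 6 were tested and 12 had at most 10 reads in all. RIPK3, the kinase through which ZBP1 triggers necroptosis, had 0 reads, MLKL, which RIPK3 phosphorylates, had 10, and DHX58, a helicase of the RIG-I family, had 0. IFIH1, which encodes MDA5, had 8 reads and TLR3 had 3. The highest levels were those of TOMM70, a mitochondrial import receptor that binds MAVS, at a mean of 211 CPM, and RELA at 166 CPM. By limma and by edgeR 0 of the 6 were called in the 13 comparisons of arms or numbers, with at most 1 in any of them at an unadjusted p under 0.05.

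Of 53 interferon-stimulated genes matched by symbol, 25 had at most 10 reads over the 16 libraries, and the median of their mean levels was 7.08 CPM. Of the 53, 10 were tested, beside 4632 of all 28207 human genes. ISG15 had 7 reads, MX1 3 and IFIT1 17, and B2M, the light chain of MHC class I, had a mean of 162 CPM. Limma and edgeR called 0 of the 10 in the 13 comparisons, with at most 2 in any of them at an unadjusted p under 0.05.

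Around EIF2AK2, of 22 genes of eIF2 and the integrated stress response 16 were tested. Between the arms limma and edgeR called 0 of them, with 1 to 4 at an unadjusted p under 0.05, and limma called 2 for any difference among the numbers, ATF3 and PPP1R15A, beside 8.85% of all genes. ATF3, a stress-induced transcription factor, had group means of 446 and 378 CPM in CC and CL of zdna3 and 75.1 to 133 CPM in the other 6 groups. It rose by 2.01 (SE 0.291) in zdna3 over zdna1, a pair in which 4.49% of all genes were called, and PPP1R15A, which directs the phosphatase that reverses EIF2AK2's action on eIF2, rose by 1.28 (SE 0.222). On the deposited scale, where the median of all genes was -1.50 for this pair, ATF3 stood at 0.44 and PPP1R15A at -0.33, and neither passed the test. EIF2S3, a subunit of eIF2, fell by 0.94 in zdna3 over zdna2, beside 6% of all genes called (adjusted p = 0.0458 by limma, 0.114 by edgeR). The level of EIF2AK2 itself differed by 0.14 in zdna3 over zdna1, with an interval from -0.49 to 0.76.

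Of 18 genes listed as DZF-domain proteins or as nuclear helicases and neighbours of DHX9, 15 were tested, and limma and edgeR called 0 between the arms, with at most 2 at an unadjusted p under 0.05. For zdna2 over zdna1, where 0.799% of all genes were called higher, limma called 4 of the 15 higher and 0 lower. These were ZFR, a DZF protein, at 0.57 (SE 0.128), the nucleolar helicase DDX21 at 0.43 (SE 0.101), SFPQ at 0.42 (SE 0.102) and MATR3 at 0.51 (SE 0.139), beside ILF2 at 0.46, which did not pass. On the deposited scale these 4 stood between 0.31 and 0.46, and 0 of them passed the test. Any difference among the numbers was called for 6 of the 15, beside 8.85% of all genes. Of the other pairs, limma called DHX15 higher in zdna3 over zdna1, beside 2.22% of all genes. It called DHX36 and ZFR lower in zdna3 over zdna2, beside 3.2%. Also lower were DDX21 and ZFR in zdna4 over zdna2, beside 1.25%, and DDX21 and DHX15 in zdna4 over zdna3, beside 2.91%. The 18 genes had a median mean level of 356 CPM, and the share called among genes of like level was not counted.

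Of 18 genes of Staufen-mediated and nonsense-mediated decay 16 were tested. Limma and edgeR called 0 between the arms, with at most 2 at an unadjusted p under 0.05, and limma called 3 for any difference among the numbers, of which edgeR called STAU2, beside 8.85% of all genes by limma and 10.6% by edgeR. They were STAU2, the paralog of STAU1, with group means from 35.6 CPM in zdna2 CC to 147 CPM in zdna4 CC, UPF1, the helicase of nonsense-mediated decay, and RBM8A, of the exon junction complex. UPF1 and RBM8A were lower in zdna4 than in zdna2, by limma (adjusted p = 0.0239 and 0.0241) and not by edgeR (0.115 and 0.101). Their zdna4 CC libraries held 3 and 2 reads in all, with 1 library of each at 0, and in the CL libraries the means were 74.8 against 114 CPM for UPF1 and 89.8 against 104 CPM for RBM8A. Of 18 other proteins with a double-stranded RNA binding domain 7 were tested, and STAU2 was the only one called in any comparison.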

How the data were processed

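RNA of 16 U2OS libraries was analysed from 1 table of human genes per library. Per the file headers, featureCounts 2.0.1 summed paired fragments on the exons of each gene without a strand option, with hg19 and a contig of the library's number as reference. The submitters' processing notes name Trim Galore 0.6.6, STAR, bedtools 2.29.2 and the builds hg19 and dm6, with no role for each. The deposited values are a scaled signal, in which nearly all values are whole multiples of 1 constant per library. How the authors obtained the constant is not given in the sources used here. After division by it, the share of a library's nonzero values within 0.1 of a whole number of reads was lowest at 99.9888%.

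Members were matched by symbol. Changes were tested, two-sided, with limma 3.58.1 in R 4.3.3 on log2 of CPM + 10, with TMM factors of edgeR 4.0.16, array weights per group, a mean-variance trend and 8 group means, over 4632 genes whose mean reached 50 CPM, and Benjamini-Hochberg adjustment at 0.05 over all of them. The test was checked on simulated counts. Alternatives were edgeR and DESeq2 1.42.0 on the recovered reads, other scalings, filters and pseudocounts, and each library left out.

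Chi-square tests of reads gave p = 0.744 for the replicates of zdna3 CC, 0.281 for zdna2 CL and 0.0992 for zdna1 CC. The contig's share of reads differed within each of these pairs, so each was kept as 2 libraries. In the other groups the same chi-square test gave p from 0.00217 in zdna4 CC to 0.0480 in zdna2 CC. Over the 8 groups the chi-square per degree of freedom ran from 0.981 in zdna3 CC to 1.10 in zdna4 CC, so replicates differed by little more than counting noise. The intervals of differences come from limma's spread between libraries, and thus hold little spread beyond that noise. The Poisson interval of ZBP1 covers counting error alone and takes reads as independent molecules, which libraries without molecular identifiers do not ensure.

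Genes named were all 8 members, up to 4 called genes of each list with the smallest p (where none was called, up to 2 of the most abundant), and the 2 genes most correlated with each member of at least 100 CPM. RIPK3, MLKL, DHX58, IFIH1, TLR3, ISG15, MX1 and IFIT1 were named after their values were seen. The members, lists and comparisons were chosen with earlier results of these data known. Sequences are from RefSeq (GRCh38.p14). Some items of the lists are not reported here.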

Additional observations from a re-analysis of the deposited data

How the results depend on the processing

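For the 6 tested genes the count called was 0 in each of 13 comparisons, and it stayed 0 with edgeR, with DESeq2, with DESeq2 size factors, with a filter at a mean of 20 CPM, with no filter, with pseudocounts of 2 and 30 CPM and without array weights. With plain library totals it was 1 for zdna2 over zdna1 (ILF2), and in the CL libraries alone 1 for zdna4 over zdna2 (ADAR). With 1 library left out in turn it ran from 0 to 1 for zdna2 over zdna1 (1 without zdna1 CC replicate 2) and stayed 0 in the other comparisons. On the deposited scale it was 2 for CL over CC in zdna3, 1 in zdna4, 2 for the average, and 6 for any difference among the numbers and for each of the 3 pairs with zdna3. There 21 of 66 estimates changed sign, and 9 of these were called: for zdna3 over zdna1, ADAR -1.34, EIF2AK2 -1.33, STAU1 -1.47 and ILF2 -1.28, for zdna3 over zdna2, ADAR -1.04, EIF2AK2 -1.32 and STAU1 -1.26, and for zdna4 over zdna3, ADAR 1.16 and DHX9 1.52. The other 12, of which 9 were between the arms, were not called. The estimates moved with the median of all genes, which the constant of each library shifts. A replicate block gave 0 calls in each comparison and left ADAR in zdna4 at 0.87. Replicate numbers showed no pairing, with correlations of deviations from -0.0195 to 0.0431 over 28 pairs of groups. MAVS and EIF2AK2 had 3 to 45 reads per library, and their intervals are not adjusted over all genes. Differences smaller than the reach of an interval to either side were not detectable. Larger ones could also go uncalled, as MAVS in zdna1 did at 0.94 with a reach of 0.69.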
